A study of Drosophila melanogaster with 9 samples.

Results

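In the 9 RNA-seq libraries of this Drosophila melanogaster series, 22 of the 17611 genes counted were higher in Lint-O mutants than in yw, the wild-type control, while not being higher in L(3)mbt mutants. They were chosen by their measured values. Counts were converted to CPM, a gene's count relative to the total of its library, and averaged over the 3 libraries of a group. A gene was taken when its Lint-O mutant mean was at least 1 CPM and at least 1.5 times the yw mean, its L(3)mbt mutant mean was at most 1.1 times the yw mean, and each Lint-O mutant library lay above each yw library. Since these values chose the genes, their levels are given as a description, and no test on the same libraries supports them. The mirrored rule, with the mutants exchanged, took 63 genes.

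L(3)mbt is a chromatin-binding repressor whose loss gives brain tumours in larvae. It keeps germline genes silent in somatic cells such as larval neuroblasts and the somatic cells of the ovary. Lint-O was isolated by the study as a partner of L(3)mbt. Genes raised after loss of Lint-O alone bear on whether Lint-O has targets of its own, but this was not tested. In cultured ovarian somatic cells, the study found Lint-O protein barely detectable after loss of its partner, with Lint-O mRNA unchanged. Protein was not measured here, so the RNA of Lint-O does not show how much Lint-O protein the L(3)mbt mutants held. The study also reports brain genes dependent on Lint-O but not on its partner, without significant functional terms. They were not compared with the genes described here.

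Per the labels, the RNA came from brains. By the study's account the brains were those of third-instar (L3) larvae, laid as eggs at 25 °C and then kept at 29 °C for 5 to 6 days, the controls included. The study's methods name the control strain as y1 w1118. The Lint-O mutation is a CRISPR-Cas9 allele (KO) in that background, from a stock balanced with FM7, and the L(3)mbt mutation is the temperature-sensitive allele ts1, from a w* stock balanced with TM6b. By the study's methods, other strains were used in making the Lint-O allele. The control and both mutants thus came from different stocks, so allele and stock background cannot be told apart in either mutant. The study describes the 3 libraries of a group as biological replicates, and the p-values below measure the spread between them.

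The libraries held 18681293 to 31519287 counts, so that 1 CPM stood for 18.7 to 31.5 counts. The RNA of Lint-O itself was at 21.6, 21.3 and 21.0 CPM in yw, 25.5, 25.4 and 24.9 in L(3)mbt mutants and 3.88, 3.50 and 3.64 in Lint-O mutants. l(3)mbt was at 123 to 141 CPM in yw, 75.9 to 84.1 in L(3)mbt mutants and 170 to 192 in Lint-O mutants. The labelled tissue was checked against marker genes. Some brain markers were expressed, others were near 0, and all 4 ovarian somatic markers were expressed. The neuronal genes elav, Syx1A and cac were at 48.0 CPM or more, 55.5 or more and 41.7 or more in all libraries, and the neuroblast genes insc and wor at 22.4 to 33.2 and 6.61 to 11.6 CPM. The neuroblast genes dpn and ase, the neuronal genes brp and Syt1 and the glial gene repo were under 1 CPM in all libraries, and this held for 4 of 7 neuroblast, 4 of 7 neuronal and 2 of 5 glial markers in total. Another 1, 3 and 3 markers of these lists exceeded 10 CPM in all libraries. All 4 ovarian somatic markers exceeded 10 CPM in all libraries, and their summed level ranged from 571 to 809 CPM in yw, from 629 to 722 for L(3)mbt and from 727 to 793 for Lint-O mutants. Most of this came from tj, at 403 to 623 CPM over the 9 libraries, and fs(1)Yb, at 138 to 166 CPM. The yw columns are named EGFP in the descriptions of the samples. The study used a GFP siRNA control for knockdowns in ovarian somatic cells (OSCs), a cultured cell line, so the columns could be OSC libraries in place of the labelled brain libraries. Whether they are was not tested, and if so, yw would stand for control cells and the mutants for depleted cells in every value below. The labelled names are kept here, and the tissue is not used to read any result. yw replicate 3 stood apart from the other yw libraries for genes of chromosome 4 and of the pericentromeric end of 2R. Ratios without it are given for the members there and for all members that leaving it out dropped.

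Most genes that were higher in Lint-O mutants were also higher in L(3)mbt mutants. Of 8168 genes with a Lint-O mutant mean of at least 1 CPM, 1064 reached 1.5 times yw, and 1030 of these also had all Lint-O mutant libraries above all yw libraries. Of the 1030, 937 were at 1.5 times yw or more in L(3)mbt mutants too, 71 lay between 1.1 and 1.5 times, and the 22 genes described here (2.14%) were at or under 1.1 times.

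**Figure D1:**
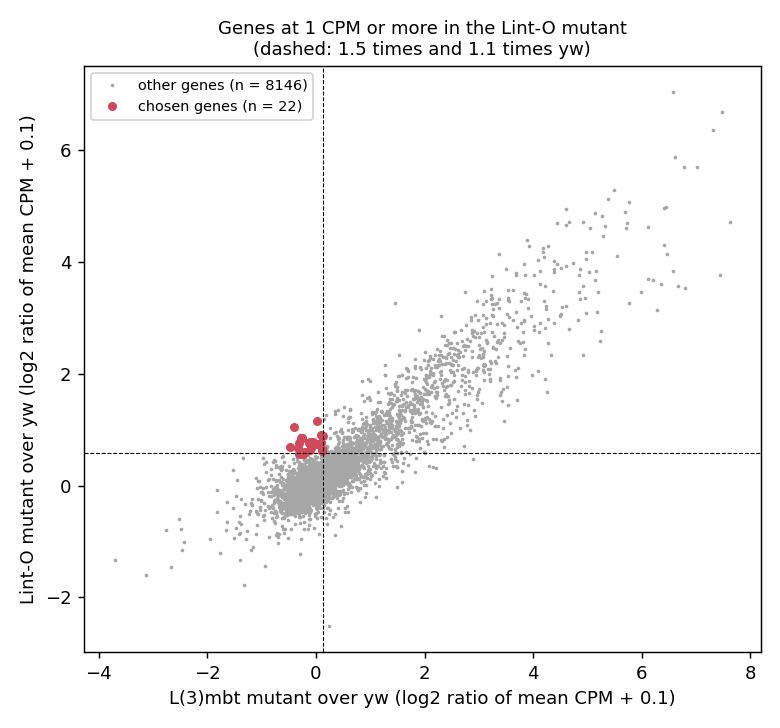
Ratio of group means for the 8168 genes at 1 CPM or more in Lint-O mutants: L(3)mbt mutant over yw on the x axis and Lint-O mutant over yw on the y axis, both as log2 ratios of mean CPM + 0.1. Each dot is a gene, and the 22 chosen genes are red. They sit at or left of the dashed line at 1.1 times yw and above the dashed line at 1.5 times yw. The exceptions are CecB and asRNA:CR43426, which the added 0.1 CPM puts just below the 1.5 line.

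The 22 genes were weakly expressed and the differences were small. Their median Lint-O mutant level was 2.36 CPM, against 42.9 CPM over the 8168 genes, and the highest of them stood at the 36.0th percentile. Single libraries held 6 to 624 counts of a member, and in 12 of the 22 genes no yw library held 50 counts. The Lint-O mutant mean was 1.504 to 2.36 times the yw mean with a median of 1.74, and only 2 genes, CG44329 and CG13029, reached 2 times. In L(3)mbt mutants the mean was 0.714 to 1.09 times yw, below yw in 15 genes and above it in 7. The limits of the rule set the means of the mutants apart, and in 21 of the 22 genes all Lint-O mutant libraries lay above all L(3)mbt mutant libraries, which held for 18.6% of the 8168 genes. Nothing is read from this count, and the exception was CG15473.

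DESeq2 was run over all genes, with calls at a Benjamini-Hochberg adjusted p under 0.01. Against yw, 4 of the 22 genes were called higher in Lint-O mutants, where 13.4% of all 10422 genes tested were called higher and 7.52% lower. The 4 were asRNA:CR46487, CG9447, CG44329 and CecA1. In L(3)mbt mutants against yw, where 18.1% of 10687 genes were called higher and 12.6% lower, none of the 22 was called in either direction by DESeq2. At an unadjusted p under 0.05 none was higher and 1, CecA1, was lower, beside 19% and 16.6% of all 13868 genes with a p. edgeR called CecA1 lower at an adjusted p under 0.01, beside 17% of its 9131 genes. Between the mutants, 10 of the 22 were called higher in Lint-O mutants, beside 5.71% higher and 9.22% lower of 9097 genes tested. With 1 library left out the calls were 1 to 4 against yw in Lint-O mutants and 4 to 10 between the mutants. The fewest came without Lint-O mutant replicate 1 in the former and without that library or L(3)mbt mutant replicate 3 in the latter. CecA1 was called against yw in 4 of 15 alternatives. The median log2 fold change of the 22 genes was 0.74 in Lint-O mutants, -0.18 in L(3)mbt mutants and 0.89 between the mutants, beside 0.01, -0.01 and -0.01 over all genes tested. The rule used these contrasts, so nothing is read from the counts, and both comparisons with yw share the same yw libraries.

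**Figure D2:**
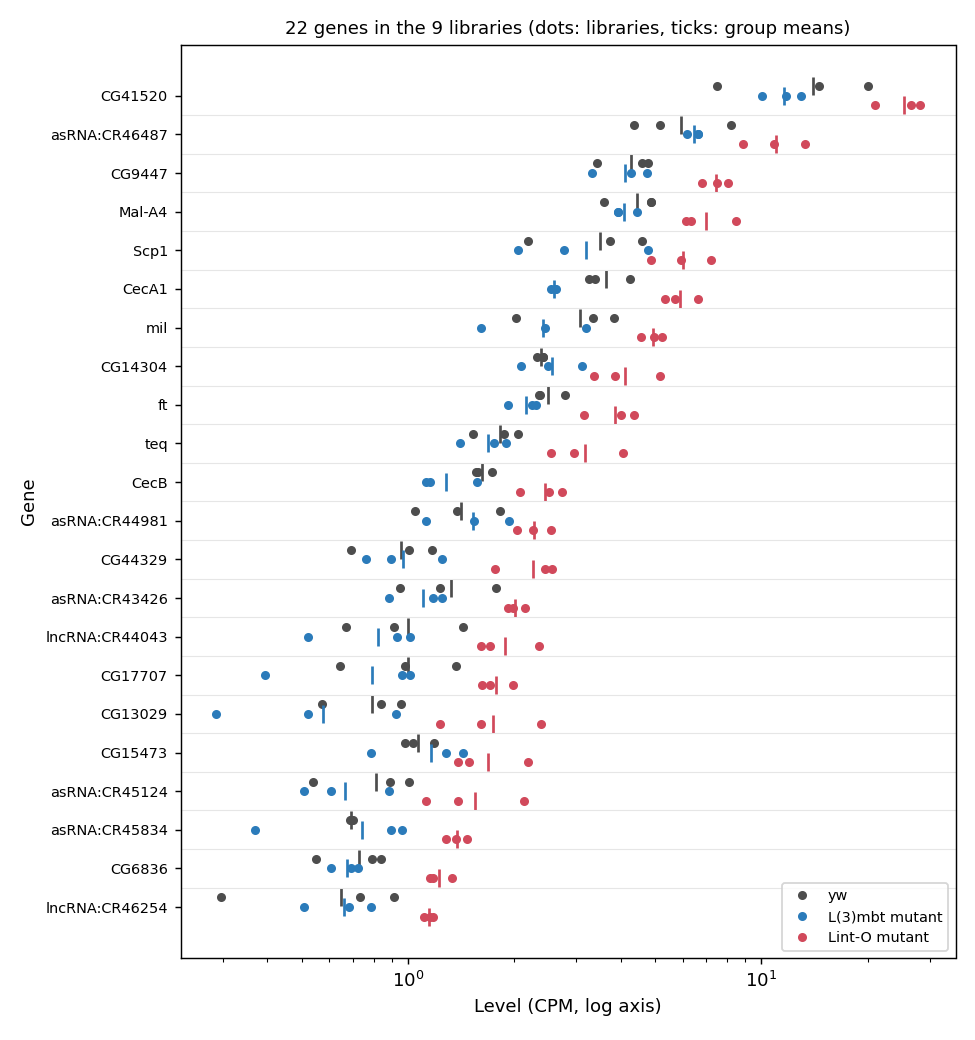
Level of each of the 22 genes in CPM (log axis) in the 9 libraries, with yw in grey, L(3)mbt mutants in blue and Lint-O mutants in red; dots are libraries and ticks are group means, n = 3. The Lint-O mutant libraries lie to the right of the yw libraries in all rows, from 1.11 to 1.18 CPM for lncRNA:CR46254 up to 21.0 to 28.2 CPM for CG41520.

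A pair of antimicrobial peptide genes was among the 22. Cecropins are short secreted peptides that kill bacteria, and their genes are induced through the Imd and Toll pathways after infection. CecA1 (FBgn0000276, chromosome 3R from 30210874 to 30211273) was at 3.38, 3.26 and 4.25 CPM in yw, 2.61, 2.63 and 2.54 in L(3)mbt mutants and 6.61, 5.71 and 5.35 in Lint-O mutants. The 3 groups did not overlap, with L(3)mbt mutants lowest (0.714 times yw) and Lint-O mutants highest (1.62 times yw). Per kilobase of countable exon CecA1 was the highest of the 22 genes, at 17.4 CPM in Lint-O mutants.

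CecB (FBgn0000278, 30213315 to 30213797) lies in the same cluster. It was at 1.74, 1.58 and 1.55 CPM in yw, 1.12, 1.15 and 1.57 in L(3)mbt mutants and 2.73, 2.07 and 2.52 in Lint-O mutants. Its ratio of 1.504 was the smallest of the 22 genes, just inside the rule. Between them lies CecA2, with means of 0.265, 0.160 and 0.621 CPM in yw, L(3)mbt mutants and Lint-O mutants, and on the other side of CecB lies CecC, with 0.156, 0.0630 and 0.0912 CPM. Both were under the 1 CPM minimum and neither was called. Cecropin genes are near-identical copies of each other, so reads could have been split between them or lost in the authors' counting, and the value of each is uncertain.

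Other genes of innate immunity were taken from a list of 32. Of 22 tested that are not among the chosen genes, 5 were called higher and 3 lower in Lint-O mutants, and 7 higher and 2 lower in L(3)mbt mutants. The shares over all genes tested were 13.4% and 7.52% in Lint-O mutants and 18.1% and 12.6% in L(3)mbt mutants. PGRP-SC2, a peptidoglycan-degrading enzyme that dampens the Imd pathway, rose from 0.815 ± 0.203 CPM in yw to 8.98 ± 0.432 in L(3)mbt mutants and 4.09 ± 0.605 in Lint-O mutants (SD, n = 3). PGRP-SA, a receptor of the Toll pathway, rose from 0.805 ± 0.495 CPM to 9.38 ± 0.505 and 3.35 ± 0.425. Both were lower in Lint-O mutants than in L(3)mbt mutants, with log2 differences of -1.13 (DESeq2 adjusted p = 1.13e-07) and -1.48 (DESeq2 adjusted p = 2.72e-10). Between the mutants 6 of 16 tested non-member genes of the list were called lower in Lint-O mutants and 0 higher by DESeq2. Over all genes tested 9.22% were called lower and 5.71% higher. Rel, the transcription factor of the Imd pathway, rose 1.251 times in Lint-O mutants (log2 fold change 0.27, SE 0.06, DESeq2 adjusted p = 0.000217) and 1.43 times in L(3)mbt mutants. Attacin-D (AttD), another antimicrobial peptide gene, rose from 0.549 ± 0.294 CPM to 1.85 ± 0.256 in Lint-O mutants, and was at 1.17 ± 0.162 CPM in L(3)mbt mutants.

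Mal-A4 (FBgn0033294, chromosome 2R from 8458815 to 8460884) encodes a maltase, an enzyme that splits glucose from short sugars. It was at 4.89, 3.60 and 4.89 CPM in yw, 4.45, 3.92 and 3.93 in L(3)mbt mutants and 6.31, 6.13 and 8.51 in Lint-O mutants, a ratio of 1.57. Its level was highest in Lint-O mutant replicate 3, and without that library the ratio was 1.40.

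Mal-A4 is 1 of a row of related maltase genes. Neither Mal-A4 (DESeq2 adjusted p = 0.0139) nor its tested neighbours were called in Lint-O mutants. Mal-A3, 922 bp away, was at 3.01, 2.61 and 2.25 CPM in yw, 3.33, 3.04 and 2.503 in L(3)mbt mutants and 4.05, 3.96 and 3.80 in Lint-O mutants. It missed the rule narrowly on both limits, at 1.499 times yw in Lint-O mutants and 1.13 times yw in L(3)mbt mutants, and its log2 fold change of 0.54 (SE 0.23) in Lint-O mutants was not called (DESeq2 adjusted p = 0.0597). Mal-A5, 1868 bp away on the other side, was at 649 ± 50.1 CPM in yw, far above the rest of the row, and was called in L(3)mbt mutants (830 ± 31.2 CPM, log2 fold change 0.30, DESeq2 adjusted p = 2.25e-05) but not in Lint-O mutants (745 ± 28.4 CPM, log2 fold change 0.15, DESeq2 adjusted p = 0.0712). Mal-A2 was at 1.77 times yw in Lint-O mutants (DESeq2 adjusted p = 0.0479) and at 1.37 times in L(3)mbt mutants. With group means under 1 CPM, Mal-A1 was at 1.51 and 1.28 times yw and Mal-A6 at 0.711 and 1.40 times, in the same order. These neighbours were picked after their values were seen.

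Tequila (teq, FBgn0023479, chromosome 3L from 9074643 to 9092131) encodes a large secreted serine protease. It was at 2.05, 1.53 and 1.87 CPM in yw, 1.40, 1.89 and 1.75 in L(3)mbt mutants and 2.94, 2.53 and 4.07 in Lint-O mutants, a ratio of 1.75. The yw and L(3)mbt mutant libraries overlapped. The next gene, CG32032, 921 bp away, rose in both mutants, from 0.364 ± 0.180 CPM in yw to 3.80 ± 0.617 in L(3)mbt and 4.31 ± 0.382 in Lint-O mutants, with a log2 fold change of 3.43 (SE 0.35, DESeq2 adjusted p = 1.55e-20) in Lint-O mutants.

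Fat (ft, FBgn0001075, chromosome 2L from 4198404 to 4221796) encodes a giant atypical cadherin that acts as a receptor upstream of the Hippo growth-control pathway and in planar cell polarity. It was at 2.79, 2.37 and 2.35 CPM in yw, 1.92, 2.31 and 2.25 in L(3)mbt mutants and 3.16, 4.38 and 4.01 in Lint-O mutants, a ratio of 1.54. Its exons add up to 16852 bp, so that the level per kilobase was 0.228 CPM in Lint-O mutants, the lowest of the 22 genes. The gene for its ligand Dachsous, ds, was at or under 0.692 CPM in all libraries and was not called. four-jointed (fj), a kinase that modifies Fat and Dachsous, was at 12.6 ± 1.03 CPM in yw and 13.6 ± 1.90 in Lint-O mutants and rose to 21.3 ± 1.73 in L(3)mbt mutants (log2 fold change 0.70, DESeq2 adjusted p = 1.45e-07). The related cadherin gene kug rose in Lint-O mutants and fell in L(3)mbt mutants, with means of 144, 125 and 177 CPM in yw, L(3)mbt mutants and Lint-O mutants, and log2 fold changes of 0.24 (DESeq2 adjusted p = 0.0032) and -0.27 (adjusted p = 0.000794). In the whole list of extracellular matrix and adhesion genes, 13 of 32 tested non-member genes were called higher and 4 lower in Lint-O mutants, and 12 higher and 7 lower in L(3)mbt mutants. Over all genes tested the shares were 13.4% and 7.52%, and 18.1% and 12.6%, in the same order.

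mil (FBgn0267366, chromosome 3R from 27912447 to 27913785) encodes a protein of the nucleosome assembly family that is known from spermatid differentiation. It was at 3.84, 2.02 and 3.33 CPM in yw, 2.45, 3.18 and 1.61 in L(3)mbt mutants and 5.25, 4.56 and 4.98 in Lint-O mutants, a ratio of 1.61. Without yw replicate 2, its lowest yw library, the ratio was 1.38. Nap1, the widely expressed member of the family, was called lower in both mutants (DESeq2), at 44.2 ± 1.31 CPM in yw, 36.2 ± 0.725 in L(3)mbt mutants and 36.8 ± 2.25 in Lint-O mutants. Of the 8 testis and germline markers in the table, 4 were under 1 CPM in all libraries, among them Mst87F and dj of late spermatogenesis, while vas had means of 2.60, 296 and 141 CPM in yw, L(3)mbt mutants and Lint-O mutants.

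The other protein-coding genes carry no established name, except Scp1, which is described with its neighbours below. The largest ratio of the 22, 2.36, was that of CG44329 (FBgn0265417, chromosome X from 5812273 to 5812977). It was at 1.005, 0.690 and 1.17 CPM in yw, 0.762, 1.246 and 0.894 in L(3)mbt mutants and 2.56, 2.44 and 1.77 in Lint-O mutants. These levels rest on 14 to 37 counts per yw library and 33 to 60 counts per Lint-O mutant library. The gap between the lowest Lint-O mutant library and the highest yw library was 1.505 times, the second largest of the 22 genes. CG13029 (FBgn0036670, 3L) had the next ratio, 2.21, with 0.959, 0.838 and 0.571 CPM in yw, 0.521, 0.923 and 0.286 in L(3)mbt mutants and 2.39, 1.61 and 1.23 in Lint-O mutants. Its Lint-O mutant libraries were spread more widely than those of CG44329, and the difference between the mutants on the log2 scale, 1.64, was the largest of the 22.

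CG9447 (FBgn0033110, chromosome 2R from 6872996 to 6875819) met the rule with each library left out in turn. It was at 4.79, 4.59 and 3.43 CPM in yw, 4.29, 4.75 and 3.32 in L(3)mbt mutants and 6.78, 7.51 and 8.03 in Lint-O mutants, a ratio of 1.74. The yw and L(3)mbt mutant libraries covered the same range, and the lowest Lint-O mutant library was 1.41 times the highest yw library. Only 86 bp away lies Spn42Da, which encodes a serpin, an inhibitor of serine proteases. Spn42Da rose in Lint-O mutants from 17.6 ± 0.760 to 25.5 ± 1.504 CPM (log2 fold change 0.48, SE 0.10, DESeq2 adjusted p = 1.05e-05), and in L(3)mbt mutants it was at 20.9 ± 1.19 CPM and was not called (log2 fold change 0.19, DESeq2 adjusted p = 0.124). The direct difference between the mutants missed the threshold as well (log2 difference 0.29, DESeq2 adjusted p = 0.0145). On the other side, 277 bp away, coro was called lower in Lint-O mutants (log2 fold change -0.18, DESeq2 adjusted p = 0.000949).

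The remaining unnamed protein-coding genes outside the 2R stretch described below were CG14304, CG17707, CG15473 and CG6836. CG14304 was at 2.42, 2.32 and 2.41 CPM in yw, 2.08, 2.49 and 3.11 in L(3)mbt mutants and 3.37, 5.16 and 3.85 in Lint-O mutants. Its ratio of 1.73 was 1.52 without Lint-O mutant replicate 2. CG17707 had means of 0.998, 0.790 and 1.77 CPM in yw, L(3)mbt mutants and Lint-O mutants, CG15473 of 1.07, 1.17 and 1.69 CPM, and CG6836 of 0.727, 0.674 and 1.22 CPM. CG15473 was the gene in which the mutants overlapped, with 1.28, 1.43 and 0.787 CPM in L(3)mbt mutants and 1.49, 1.38 and 2.19 in Lint-O mutants.

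Of the 22 genes, 7 are noncoding RNA genes, 5 named as antisense RNAs (asRNA) and 2 as long noncoding RNAs (lncRNA). That is 31.8%, against 3.23% of the annotated genes at 1 CPM or more. Noncoding genes were more frequent at low levels in general, with 16.5% of the 701 annotated genes from 1 to under 2.5 CPM, beside 6 of the 12 members in that range. The largest gap among all 22 genes belonged to asRNA:CR45834 (3L from 1784395 to 1784800), whose lowest Lint-O mutant library was 1.84 times its highest yw library. It was at 0.685, 0.690 and 0.698 CPM in yw, 0.962, 0.369 and 0.894 in L(3)mbt mutants and 1.37, 1.47 and 1.28 in Lint-O mutants, which stands for 14 to 22 counts in yw and 24 to 32 counts in Lint-O mutants.

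The other noncoding genes had ratios of 1.52 to 1.91. asRNA:CR45124, the only member on chromosome 4, was at 1.005, 0.888 and 0.539 CPM in yw, 0.882, 0.507 and 0.608 in L(3)mbt mutants and 2.13, 1.38 and 1.12 in Lint-O mutants. Its nearest tested neighbour on one side, lncRNA:CR44440, 1399 bp away, rose in both mutants and more in Lint-O mutants, with means of 0.942 ± 0.225, 5.05 ± 0.374 and 8.47 ± 2.15 CPM in yw, L(3)mbt mutants and Lint-O mutants and a log2 difference between the mutants of 0.75 (DESeq2 adjusted p = 0.00308). Chromosome 4 is largely heterochromatic. Over 89 of its genes the median log2 deviation from the group mean was 0.21, 0.22 and -0.40 in yw replicates 1 to 3, so that yw replicate 3 was low there as a whole, as it was for asRNA:CR45124. Without that library the ratio of asRNA:CR45124 was 1.63, against 1.91 with it. asRNA:CR44981, asRNA:CR43426 and lncRNA:CR46254 had means of 1.42, 1.32 and 0.646 CPM in yw, 1.53, 1.102 and 0.658 in L(3)mbt mutants and 2.28, 2.01 and 1.15 in Lint-O mutants.

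Of the 22 genes, 4 lie in the pericentromeric end of chromosome 2R, within 1.599 Mb (1368921 to 2968052). Genes in such heterochromatin often have very long introns and depend on heterochromatin for normal expression. In map order these were lncRNA:CR44043, CG41520, asRNA:CR46487 and Scp1. CG41520, which spans 129877 bp, had the highest level of the 22, at 14.6, 20.1 and 7.49 CPM in yw, 10.1, 11.8 and 13.0 in L(3)mbt mutants and 26.6, 28.2 and 21.0 in Lint-O mutants. Scp1, which encodes a calcium-binding protein, was at 3.74, 4.59 and 2.19 CPM in yw, 2.04, 2.77 and 4.79 in L(3)mbt mutants and 7.21, 5.94 and 4.87 in Lint-O mutants. In both genes yw replicate 3 was the lowest yw library and Lint-O mutant replicate 3 the lowest Lint-O mutant library. asRNA:CR46487 was at 5.16, 8.24 and 4.38 CPM in yw, 6.61, 6.18 and 6.61 in L(3)mbt mutants and 13.3, 10.9 and 8.89 in Lint-O mutants. lncRNA:CR44043 was at 0.913, 1.43 and 0.666 CPM in yw, 0.521, 1.01 and 0.930 in L(3)mbt mutants and 2.35, 1.70 and 1.61 in Lint-O mutants.

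The stretch, which was chosen after the values were seen, holds or overlaps 10 genes at 1 CPM or more in Lint-O mutants, and yw replicate 3 was the lowest yw library in all 10. Among the 6 that are not members, 1 (CG17684) was called higher and 2 (BckdhB and lncRNA:CR46481) lower in Lint-O mutants. Over all genes tested the shares were 13.4% and 7.52%. rl, an ERK kinase gene on the centromere side of the stretch, was at 111, 120 and 28.0 CPM in yw, 37.2, 39.5 and 85.9 in L(3)mbt mutants and 112, 107 and 81.0 in Lint-O mutants. For rl the yw libraries alone spanned the values of all mutant libraries. The part of this spread in the members' values was not tested beyond leaving out a library. Without yw replicate 3 the ratio was 1.46 for CG41520 and 1.44 for Scp1, under the rule's 1.5, and 1.65 for asRNA:CR46487 and 1.61 for lncRNA:CR44043.

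**Figure D3:**
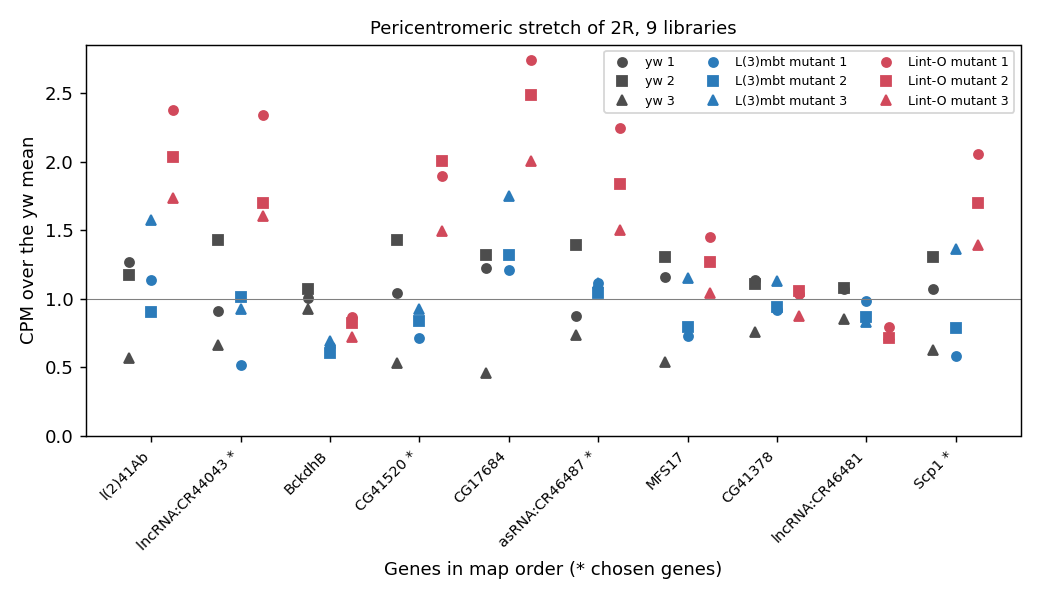
CPM of the 10 genes of the 2R stretch in each library, divided by the yw mean of the gene, in map order, with yw in grey, L(3)mbt mutants in blue and Lint-O mutants in red and symbols for replicates 1 to 3. yw replicate 3 (grey triangles) is the lowest yw library in all 10 genes, and asterisks mark the 4 chosen genes.

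Many of the 22 genes share their place with another gene, which bears on what their counts hold. In the table, 73 protein-coding genes are covered over nearly the whole of their exons by genes of the opposite strand only, and all 73 had no count in any library, so that reads in shared exons were left out whatever their strand. Reads from the intron of a gene on one strand and from a gene on the other strand that lies in that intron cannot be told apart in such counts. Of the 22 genes, 13 overlap another gene, and 10 lie wholly within the span of a gene of the opposite strand. The overlapping genes were not part of the rule, and 12 of them were tested. In Lint-O mutants 5 of the 12 were called higher and 1 lower, and in L(3)mbt mutants 3 were called higher and 1 lower. Over all genes tested, 13.4% were called higher and 7.52% lower in Lint-O mutants, and 18.1% and 12.6% in L(3)mbt mutants. CG17684, among the 5, is counted again below as a flanking gene. Nothing is read from counts this small.

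The hosts in the 2R stretch, like the genes they contain, had their highest values in Lint-O mutants. CG17684, whose span holds asRNA:CR46487, was at 6.16, 6.66 and 2.32 CPM in yw, 6.09, 6.64 and 8.83 in L(3)mbt mutants and 13.8, 12.5 and 10.1 in Lint-O mutants (log2 fold change 1.23, SE 0.40, DESeq2 adjusted p = 0.00935). l(2)41Ab, which holds lncRNA:CR44043, was at 7.26, 6.71 and 3.24 CPM in yw, 6.53, 5.17 and 9.04 in L(3)mbt mutants and 13.6, 11.7 and 9.96 in Lint-O mutants, and was not called (log2 fold change 0.99, SE 0.35, DESeq2 adjusted p = 0.0212). In both hosts the Lint-O mutant libraries lay above the yw and L(3)mbt mutant libraries, and in neither was the difference between the mutants called (DESeq2 adjusted p = 0.161 and 0.105). The call of CG17684 was held in 5 of 15 alternatives.

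Other hosts moved in both mutants while the gene inside them was, by the rule, higher only in Lint-O mutants. Rh4, an opsin gene that spans CG13029, rose from 1.79 ± 0.443 CPM in yw to 26.9 ± 1.62 in L(3)mbt mutants and 20.5 ± 0.897 in Lint-O mutants. qin, a piRNA pathway gene that spans CG14304, rose from 17.3 ± 1.93 CPM to 104 ± 7.78 and 81.4 ± 4.73, and tyn, which spans CG17707, from 15.1 ± 0.987 CPM to 34.5 ± 2.85 and 33.2 ± 1.59. All 3 were called in both mutants (DESeq2), and in all 3 the gene inside was at or under 1.1 times yw in L(3)mbt mutants. Rh4 and qin were called lower in Lint-O mutants than in L(3)mbt mutants (log2 differences -0.38 and -0.35, DESeq2 adjusted p = 0.0035 and 0.000208), and the difference of tyn was -0.04 (SE 0.09, DESeq2 adjusted p = 0.791). alpha-Spec, which encodes a subunit of the spectrin membrane skeleton and spans asRNA:CR45834, rose from 659 ± 40.2 CPM in yw to 945 ± 71.6 in Lint-O mutants (log2 fold change 0.47, SE 0.07, DESeq2 adjusted p = 6.2e-11) and was not called in L(3)mbt mutants (772 ± 46.4 CPM, log2 fold change 0.17, DESeq2 adjusted p = 0.0315). The difference between the mutants was called (log2 difference 0.30, DESeq2 adjusted p = 0.000125). In the opposite direction, sky, which spans asRNA:CR44981, fell in Lint-O mutants from 7.20 ± 0.815 to 4.40 ± 0.661 CPM (log2 fold change -0.76, SE 0.23, DESeq2 adjusted p = 0.00551), a call held in 7 of 15 alternatives. In L(3)mbt mutants sky was at 5.52 ± 2.02 CPM and was not called (log2 fold change -0.45, DESeq2 adjusted p = 0.101). The difference of sky between the mutants was not called either (log2 difference -0.31, DESeq2 adjusted p = 0.386).

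**Figure D4:**
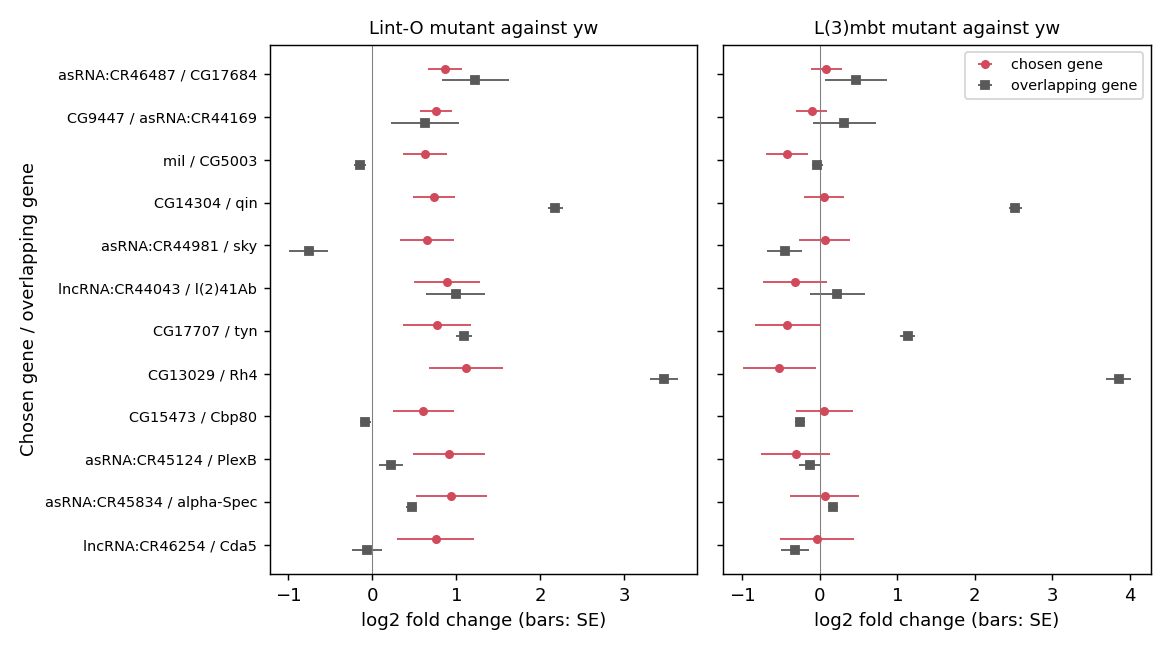
log2 fold change against yw with its SE (bars) for the 12 tested overlapping genes (grey squares) and the chosen gene each overlaps (red dots), in Lint-O mutants (left panel) and L(3)mbt mutants (right panel). Rh4, qin and tyn are raised in both panels, CG17684, l(2)41Ab and alpha-Spec are farther to the right in Lint-O mutants, and sky lies at -0.76 in Lint-O mutants.

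The genes beside the 22 on the map were examined in the same way, as the nearest tested gene on each side that does not overlap. Of 41 such genes outside the chosen ones, 5 were called higher and 4 lower in Lint-O mutants, with a median log2 fold change of -0.02, and 5 higher and 3 lower in L(3)mbt mutants. The shares over all genes tested were 13.4% and 7.52% in Lint-O mutants and 18.1% and 12.6% in L(3)mbt mutants. The 5 called higher in Lint-O mutants were Spn42Da, CG32032, CG14401, lncRNA:CR44440 and CG17684. CG14401, 2548 bp from asRNA:CR44981, rose from 2.43 ± 0.640 CPM in yw to 11.9 ± 1.20 in L(3)mbt and 11.8 ± 0.859 in Lint-O mutants, both called by DESeq2. No member lies within 100 kb of Lint-O or l(3)mbt.

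By pathway, 2 of the 9 function lists held members, innate immunity with CecA1 and CecB and extracellular matrix and adhesion with ft. In Lint-O mutants the calls in the other lists were 7 higher and 4 lower of 23 tested genes for heat shock and oxidative stress, 0 and 3 of 11 for JAK-STAT, 0 and 7 of 17 for EGFR and Ras, and 2 and 1 of 17 for Notch. For Hedgehog, Wnt and Dpp they were 1 and 2 of 27, for the ecdysone response 0 and 0 of 15, and for sex determination and dosage compensation 2 and 1 of 16. The shares over all genes tested were 13.4% higher and 7.52% lower. In L(3)mbt mutants, where these shares were 18.1% and 12.6%, heat shock and oxidative stress gave 10 higher and 3 lower of 23. JAK-STAT gave 1 and 1 of 11, EGFR and Ras 1 and 4 of 17, and Notch 2 and 3 of 18. Hedgehog, Wnt and Dpp gave 2 and 2 of 27, the ecdysone response 1 and 1 of 15, and sex determination and dosage compensation 3 and 1 of 16. None of these lists holds a gene that met the rule. By chromosome, 3 of the 22 genes were on X, 3 on 2L, 6 on 2R, 5 on 3L, 4 on 3R and 1 on 4. Of the annotated genes at 1 CPM or more in Lint-O mutants, 17.4% were on X, 17.6% on 2L and 20.4% on 2R. The shares of 3L, 3R and 4 were 19.6%, 23.9% and 1.04%, and nothing is read from these counts.

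Several genes lay close to the limits of the rule, on either side. Just inside the 1.5 limit were CecB (1.504), asRNA:CR43426 (1.52) and ft (1.54), and just outside it CG7227 (1.48), yellow-d2 (1.46) and CG44437 (1.46). Just inside the 1.1 limit for L(3)mbt mutants were asRNA:CR46487 and CG15473 (1.09 each) and asRNA:CR44981 (1.08), and just outside it tbrd-1 (1.10004), CG34433 and rn (1.11 each). Just inside the 1 CPM minimum were lncRNA:CR46254 (1.15 CPM), CG6836 (1.22) and asRNA:CR45834 (1.37), and just outside it CG5958 (0.973), axed (0.710) and CG8813 (0.694).

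The rule was repeated with each of the 9 libraries left out. It then took 22 to 36 genes, and 15 to 21 of the 22 were among them. In all 9 runs 7 of the 22 were kept: CG9447, CecA1, teq, lncRNA:CR44043, CG17707, CG13029 and asRNA:CR45124. CecB was kept in 5, and ft, asRNA:CR44981, asRNA:CR43426, CG15473 and lncRNA:CR46254 in 6. Leaving out yw replicate 2 or yw replicate 3 dropped the most, 7 genes each time. Without yw replicate 3 these were CG41520, Scp1, CG44329, ft, CecB, asRNA:CR44981 and asRNA:CR43426. The ratio was then 1.49 for ft, 1.47 for CecB, 1.42 for asRNA:CR44981, 1.34 for asRNA:CR43426 and 2.66 for CG44329. Less RNA per cell and fewer cells of a type cannot be told apart in bulk RNA, and this holds for every level above.

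**Figure D5:**
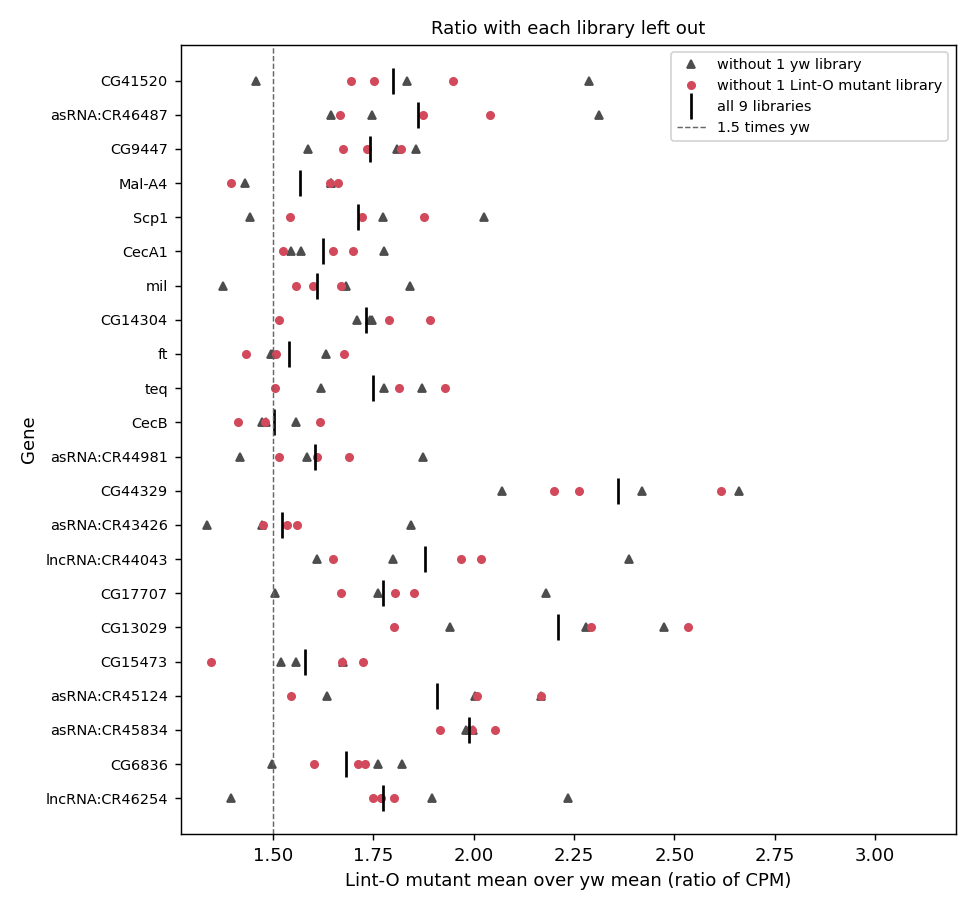
Lint-O mutant mean over yw mean (ratio of CPM) for each of the 22 genes with all 9 libraries (black tick) and with 1 yw library (grey triangles) or 1 Lint-O mutant library (red dots) left out; the dashed line marks 1.5. For CG44329 and CG13029 all ratios stay above 1.80, and for CecB 4 of 6 fall below 1.5.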

How the data were processed

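The authors aligned the reads with HISAT2 to dm6 and counted them per gene with featureCounts, tools named in the submitters' processing notes without versions; the strand setting and the annotation are not given in the sources used here. The deposited table gives unnormalized whole-number counts of reads for each gene and library. All 9 columns were assigned through the column names in the sample descriptions. Positions and names came from Ensembl's annotation of BDGP6.54, which has the coordinates of dm6, with 17559 identifiers matched and 52 not found. CPM is a count scaled to the sum of its column.

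DESeq2 1.42.0 (R 4.3.3), the study's tool, was run on the counts of all 9 libraries with 1 coefficient per group, median-of-ratios size factors, two-sided Wald tests and Benjamini-Hochberg adjustment over all genes tested, at 0.01. edgeR 4.0.16 (quasi-likelihood, TMM), other scalings, filters and group choices and leaving out each library were alternatives. The scripts were tested on simulated data. A count of 0 allows up to 3 counts, or 0.0952 to 0.161 CPM, for counting error only. CPM lay above size-factor scaling by a median log2 shift of 0.05 in the Lint-O mutant and 0.06 in the L(3)mbt mutant.

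The members and all lists were chosen with earlier results of these data known. All 22 members are named; each is named because of its level, its gap to yw, its list, its neighbours or its distance from a limit, or to account for every member; other genes were named after their values were seen, as overlapping or flanking genes, list genes or genes beside a limit of the rule. No sequences were used here, so promoter motifs were not searched.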

Additional observations from a re-analysis of the deposited data

How the results depend on the processing

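The number of genes that met the rule moved with its limits. It was 2 at a ratio of at least 2, 94 at the lower ratio limit tried, 40 at the higher limit tried for L(3)mbt mutants and 6 at a minimum of 5 CPM. Leaving out each library gave 22 to 36 genes, the highest without Lint-O mutant replicate 3. Median-of-ratios and TMM scaling gave 25 genes each, of which 19 and 18 were among the 22, and ft, CecB and asRNA:CR43426 were dropped by both.

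Calls among the 22 genes against yw in Lint-O mutants numbered 4 by DESeq2 at an adjusted p under 0.01, 9 at an adjusted p under 0.05 and 1 to 4 with 1 library left out. In L(3)mbt mutants they numbered 0, against 1 (CecA1, lower) with edgeR, 1 at an adjusted p under 0.05 and 0 to 1 with 1 library left out, the 1 without yw replicate 3. Between the mutants they numbered 10, against 17 at an adjusted p under 0.05 and 4 to 10 with 1 library left out. With a replicate block the calls were 2, 0 and 7 in these comparisons. Same-numbered libraries correlated by -0.167 to 0.116 in their deviations from the group means, so the numbers did not pair the libraries. Of 330 refitted log2 fold changes of the 22 genes in Lint-O mutants, none reversed, 19 lost and 4 gained a call, and the causes were not tested. The rule placed all Lint-O mutant libraries above all yw libraries, so a reversal was hardly possible and nothing is read from its absence. Counts were low, with under 50 in every yw library for 12 members, and the part of depth in the precision was not tested.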
